A study of Mus musculus with 1016 samples.

Results

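The centromere-proximal 10 Mb of the 19 mouse autosomes were examined by single-cell Repli-seq, a low-coverage DNA sequencing of single cells that reads from copy number which stretches of the genome have replicated. A block was the set of 50 kb bins starting beyond the first 3 Mb and before 13 Mb of a chromosome in GRCm38 (mm10), which gave 3800 of the 49264 bins, and 3513 of these bins carried a call in at least 1 cell. The first 3 Mb of every chromosome, 1140 bins in all, are an assembly gap that stands for the centromere and its satellite DNA, and none of them carried a call. The comparison was with the remaining 44324 bins of the same chromosomes (43189 called). Chromosomes 12, 15, 16, 18 and 19, taken here as those that carry the ribosomal RNA genes (rDNA) below the centromere, contributed 1000 bins (956 called), and the other 14 chromosomes contributed 2800 bins (2557 called). Which chromosomes carry rDNA varies between mouse strains and was not checked for C57BL/6J, CBA and DBA/2J, so the rDNA set below is that list of 5 chromosomes. Calls were thin in the block of chromosome 14 (106 of 200 bins) and of chromosome 7 (123 of 200 bins), and every other block had 172 or more called bins.

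Of the cells, 714 of the 733 with states had a replication score, the percentage of called bins replicated, of 10 to 90 and were used. They include cells that failed the study's quality control, among them 13 zygotes, 9 2-cell, 7 8-cell and 6 16-cell cells and 8 parthenotes. The treated 2-cell groups, the paternal pronuclei and 37 ICM cells have no quality entry. With passed cells alone, both measures used below kept their sign in the 10 groups with entries. Cells came from superovulated mice, and all natural stages, IVF zygotes and treated embryos were (C57BL/6J x CBA) x DBA/2J: 66 zygotes (20 to 26 h after hCG), 63 2-cell (32 to 40 h), 55 4-cell (50 to 56 h), 56 8-cell (66 to 72 h), 40 16-cell (77 and 80 h), 47 morula (90 to 96 h) and 70 inner cell mass cells (ICM, 96 to 104 h), the last being blastocyst cells that had not taken up fluorescent microspheres. The treated 2-cell embryos were 42 cells with α-amanitin (0.1 mg/mL from 17 h, 34 to 39 h at collection) and 67 cells with DRB (100 µM from 17 h, 34 to 40 h), which both inhibit transcription, and 56 cells from zygotes injected at 18 h with 2 µg/µL mRNA of Kdm5b, a histone H3 lysine demethylase (34 to 40 h). A further 57 zygotes were made by in vitro fertilization (IVF), 57 were parthenotes, activated eggs without sperm ((C57BL/6J x CBA)F1, like IVF zygotes collected from 5.5 h on a clock of their own), and pronuclei isolated from zygotes (21 to 25 h) comprised 21 maternal ((C57BL/6J x CBA)F1) and 17 paternal (DBA/2J) samples. Zygotes, parthenotes and pronuclei are 1 embryo each, although embryos of shared mothers are not told apart in the labels. By the study's methods both pronuclei of a zygote were processed, so maternal and paternal samples in part share embryos. The numbers in the labels do not settle which, and the tests between them took the samples as separate. From the 2-cell stage on, blastomeres are not tied to embryos, so each of those groups counted as 1 sample and its values are descriptions without a test, with the spread over collection hours beside them. In the series, 8-cell embryos collected at 72 h and 16-cell embryos collected at 77 h stand apart from the rest of their stages, and values that rest on them are given with and without them.

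Mouse autosomes have their centromere at one end, beside large arrays of satellite repeats that are packed as heterochromatin and that cluster with those of other chromosomes in the nucleus. The sequence just beyond the satellites is ordinary, gene-bearing DNA in that neighbourhood. On some chromosomes the rDNA arrays, around which nucleoli form, lie next to the centromere, and such chromosomes meet at nucleoli. In somatic cells, gene-rich and GC-rich DNA usually replicates early in S phase and AT-rich, gene-poor or heterochromatic DNA late.

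The blocks range from CpG-rich gene starts to almost gene-free DNA. The 250 bases upstream of 6 gene starts (RefSeq, GRCm38.p6, printed 5′ to 3′ on the strand of the gene) are shown because these genes lie in the windows with the earliest, latest or most different replication described below. For Crebbp (gene end at 4213957) and Cdk6 (gene start at 3341004) the bases lie inside the annotated gene, upstream of an internal start. CG dinucleotides, searched as the letters CG, which read the same on either strand, are in capitals. Crebbp, a histone acetyltransferase in the early window of chromosome 16, has 44 of them at chr16:4213405-4213654 (minus strand), and 0.539% of 32851 promoters of the same length have as many or more.
Crebbp: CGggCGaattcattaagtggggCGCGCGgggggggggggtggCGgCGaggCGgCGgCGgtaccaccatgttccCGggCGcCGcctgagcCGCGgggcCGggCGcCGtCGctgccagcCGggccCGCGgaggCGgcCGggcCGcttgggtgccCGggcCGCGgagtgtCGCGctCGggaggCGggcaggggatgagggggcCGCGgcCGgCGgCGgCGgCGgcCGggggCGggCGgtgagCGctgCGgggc
Heatr1, needed for the synthesis of ribosomal RNA and in the early window of chromosome 13, has 13 CG at chr13:12395125-12395374 (plus strand), and 31.5% of promoters have as many or more.
Heatr1: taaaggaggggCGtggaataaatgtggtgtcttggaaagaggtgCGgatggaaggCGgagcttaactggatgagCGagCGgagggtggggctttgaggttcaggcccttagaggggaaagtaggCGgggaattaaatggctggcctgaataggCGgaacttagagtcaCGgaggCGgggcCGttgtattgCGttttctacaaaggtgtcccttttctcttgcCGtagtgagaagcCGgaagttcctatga
Kmt5c, which trimethylates histone H4 lysine in pericentromeric heterochromatin, lies in the chromosome 7 window that was most advanced in morulae and also has 13 CG at chr7:4739877-4740126 (plus strand).
Kmt5c: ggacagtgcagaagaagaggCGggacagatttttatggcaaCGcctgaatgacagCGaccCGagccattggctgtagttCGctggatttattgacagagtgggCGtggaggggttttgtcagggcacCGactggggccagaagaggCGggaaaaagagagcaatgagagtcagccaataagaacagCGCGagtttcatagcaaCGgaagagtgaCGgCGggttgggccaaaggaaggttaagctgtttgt
Cdk6, a kinase of the G1 phase in a window that was late with α-amanitin, has 22 CG at chr5:3343643-3343892 (plus strand), and 14.8% of promoters have as many or more.
Cdk6: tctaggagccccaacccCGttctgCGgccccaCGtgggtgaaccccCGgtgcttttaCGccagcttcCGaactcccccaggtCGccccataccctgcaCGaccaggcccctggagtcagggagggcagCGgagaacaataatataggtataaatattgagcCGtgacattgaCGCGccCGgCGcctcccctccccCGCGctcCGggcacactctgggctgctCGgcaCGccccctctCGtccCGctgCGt
Cntn5, a neuronal adhesion gene whose window was most delayed in morulae, has 24 CG at chr9:10904776-10905025 (minus strand), and 12% of promoters have as many or more.
Cntn5: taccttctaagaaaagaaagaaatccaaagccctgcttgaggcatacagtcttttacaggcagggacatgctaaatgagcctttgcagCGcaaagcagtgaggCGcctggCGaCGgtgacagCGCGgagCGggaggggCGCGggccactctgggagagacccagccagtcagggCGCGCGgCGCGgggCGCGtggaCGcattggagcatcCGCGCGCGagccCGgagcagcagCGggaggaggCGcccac
The start of 1700008P02Rik, the only gene of a late window of chromosome 3, has 5 CG at chr3:6620444-6620693 (minus strand), and 55.6% of promoters have as many or more.
1700008P02Rik: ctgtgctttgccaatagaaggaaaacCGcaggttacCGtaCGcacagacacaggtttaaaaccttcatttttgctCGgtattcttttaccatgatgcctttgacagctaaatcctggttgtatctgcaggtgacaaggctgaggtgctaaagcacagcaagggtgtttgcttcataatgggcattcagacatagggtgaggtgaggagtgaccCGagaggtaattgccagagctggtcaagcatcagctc
The late genes thus include a CpG-rich start (Cntn5) as well as a CpG-poor one, against a median of 6 CG over all promoters.

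The blocks lagged behind their chromosomes in early embryos and most of all at the 2-cell stage, and ran level with or ahead of them from the 8-cell stage on. Each value below is the percentage of cells with a bin replicated, averaged within the block or within the rest of the chromosome and then over the 19 chromosomes. In zygotes, 52% was replicated in the blocks and 54.6% in the rest, a difference of −2.60 percentage points. The 2-cell stage had 42.6% in the blocks and 50.1% in the rest (−7.47 points), and the 4-cell stage 38.3% and 41.2% (−2.87 points). The sign then turned, to 1.67 points in 8-cell embryos, 2.92 in 16-cell embryos, 1.62 in morulae and 1.97 in the ICM. The morula value was 0.604 points without chromosome 16 and 0.173 points when the share was averaged over ranges of the replication score. The SD over chromosomes was larger than each of these averages at every stage except the 2-cell stage, ranging from 6.74 points (8-cell) to 11.8 points (morula), so single chromosomes departed widely from the mean. At the 2-cell stage the blocks of 16 chromosomes were below the rest of their chromosome, against 12 in zygotes, 13 at the 4-cell stage and 6 in the ICM.

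**Figure D1:**
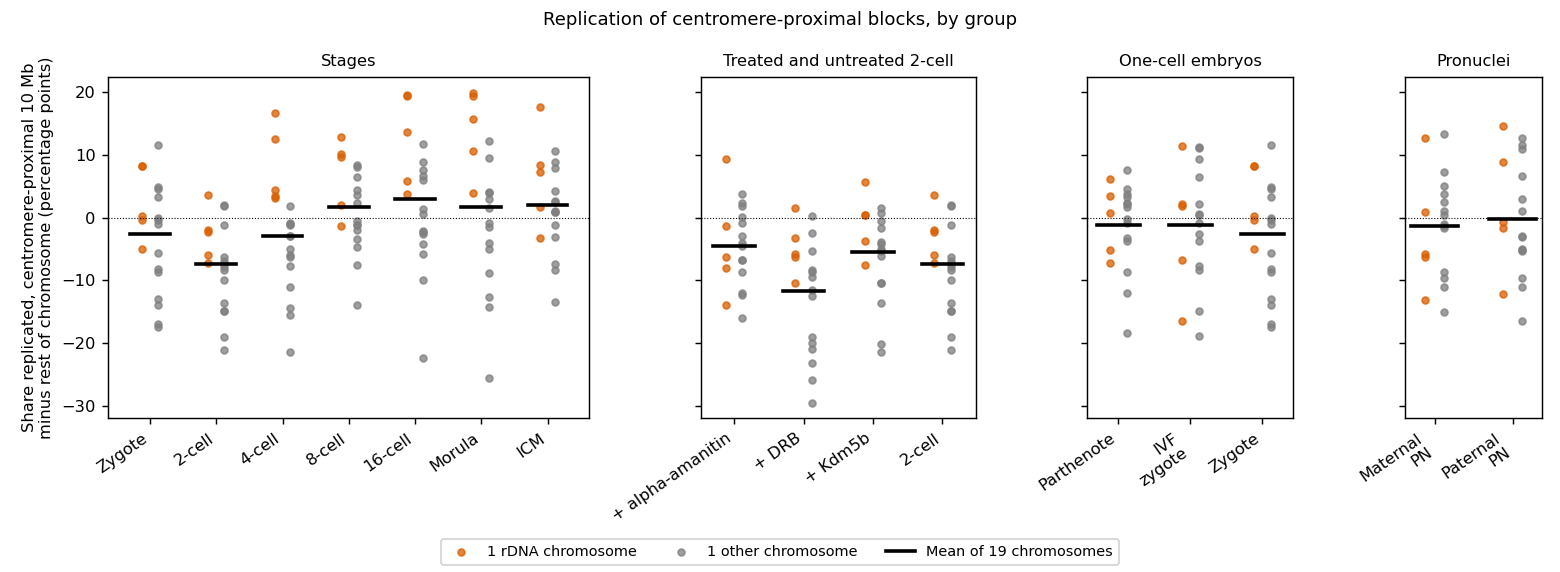
Share of cells with a bin replicated in the centromere-proximal block minus that in the rest of the chromosome (percentage points, vertical axis) in each group, with 1 point per chromosome (rDNA chromosomes and others apart) and a bar for the mean of 19 chromosomes. The bars of the 2-cell groups lie lowest, between −4.59 and −11.6 points, and those of the 8-cell, 16-cell, morula and ICM groups lie above 0.

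Single cells overlapped widely between stages. The block-minus-rest difference of a 2-cell embryo cell had a lowest value of −24.8, a median of −6.72 and a highest value of 14.2 points, and the blocks were ahead of the rest in 10 of 63 cells (15.9%, 95% exact binomial interval 7.88 to 27.3%). In morula cells it was −8.95 at the lowest, 1.60 at the median and 12.8 at the highest, and the blocks were ahead in 27 of 47 cells (57.5%, 42.2 to 71.7%). At the 4-cell stage the blocks were ahead in 7 of 55 cells (12.7%, 5.27 to 24.5%), with a median of −2.91 points, so a smaller mean lag than at the 2-cell stage did not go with more cells ahead. Medians of 1.79 points (8-cell), 1.16 points (16-cell) and 1.99 points (ICM) had another order than the means. The intervals cover the sampling of cells only. By collection hour, all 7 hours of the 2-cell stage were below 0 (−14.1 to −4.04 points), as were all 7 hours of the zygote (−7.06 to −0.542), while both hours of the ICM (1.34 and 2.68) and of the 16-cell stage (1.39 and 3.38) were above 0. The 8-cell stage was at −2.25 points at 66 h and above 0 at its other 4 hours, and without the 72 h cells its value was 1.81.

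Zygotes could be tested, since each is an embryo. The blocks of the 66 zygotes were at −2.60 ± 5.59 points (SD) relative to the rest, with 23 embryos above 0 (two-sided sign-flip permutation test, p = 0.00034, Benjamini-Hochberg adjusted p = 0.00272 over 16 tests). IVF zygotes were at −1.22 ± 6.24 points (57 embryos, 24 above 0, permutation adjusted p = 0.463) and parthenotes at −1.23 ± 5.84 points (57 embryos, 25 above 0, permutation adjusted p = 0.460). With a block of 5 Mb both groups passed the test, at −3.34 points (permutation adjusted p = 0.00488) and −3.27 points (permutation adjusted p = 0.00437). In the 1 Mb next to the assembly gap they were at −8.75 points (IVF) and −7.98 points (parthenotes).

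In 2-cell embryos the lag reached into the next 10 Mb and was small or absent further along. Consecutive 10 Mb blocks starting at 3, 13, 23, 33 and 43 Mb differed from the rest of their chromosome there by −7.47, −6.93, −1.05, 0.387 and 1.59 points. In zygotes the block at 13 Mb was lower than the one at 3 Mb (−5.12 points), and in DRB-treated 2-cell embryos the series was −11.6, −8.16, 1.98, 3.74 and 2.81 points. Morulae had 1.62, −4.69, 2.45, −0.347 and −5.01 points, so the sequence beyond the block was later there than the block itself. Within the block, the 1 Mb step from 7 to 8 Mb was at −13 points in 2-cell embryos and at −9.47 points in morulae, where the step from 4 to 5 Mb was at 7.81 points. In morulae the rDNA chromosomes were at 19.5 points and the others at 3.30 points from 4 to 5 Mb, and at 9.51 and −17.4 points from 7 to 8 Mb. The last 10 Mb of the chromosomes also lagged in several groups (−3.20 points in 2-cell embryos, −14.3 with α-amanitin, −9.91 in IVF zygotes), but were 5.79 points ahead in morulae.

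**Figure D2:**
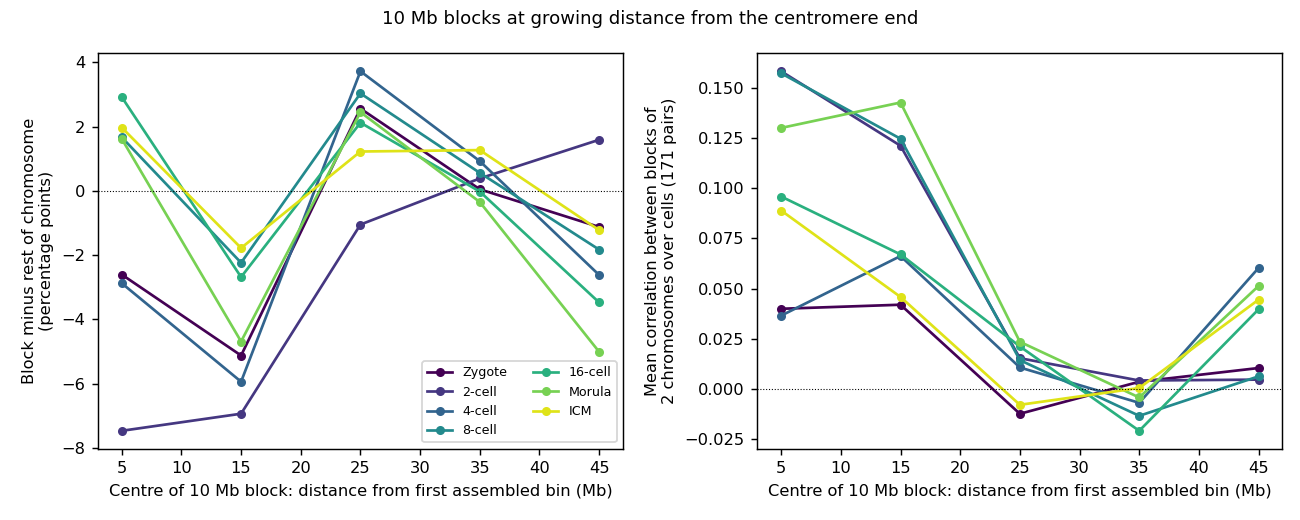
Left, block minus the rest of the chromosome (percentage points) for consecutive 10 Mb blocks by the distance of their centre from the first assembled bin (Mb), 1 line per stage. Right, the mean correlation over cells between such blocks of 2 chromosomes, which at the 2-cell stage was 0.159 in the first block, 0.121 in the second and 0.0152 in the third.

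The blocks of different chromosomes were weakly correlated across cells. Across cells of the 2-cell stage, the correlation of the block-minus-rest differences of 2 chromosomes averaged r = 0.159 over all pairs of the 19 chromosomes, with 136 pairs above 0, against 0.0152 for the blocks from 23 to 33 Mb of the same cells. The same mean was 0.158 in 8-cell embryos (134 pairs above 0, against 0.0142 at 23 to 33 Mb), 0.152 with DRB (142 pairs, against 0.0406) and 0.130 in morulae (120 pairs, against 0.0234), and it was 0.0399 in zygotes. The blocks from 13 to 23 Mb had means of 0.121 (2-cell), 0.125 (8-cell), 0.0949 (DRB) and 0.143 (morula). The correlation was thus not particular to the first block. These correlations describe single cells, whose bins share a library and a replication score, and were given no test. Without the 72 h cells the 8-cell mean was 0.187. Among the 10 pairs of rDNA chromosomes the mean was 0.316 at the 8-cell stage and 0.259 in morulae, but −0.0348 at the 2-cell stage. From 43 to 53 Mb the same pairs had means of 0.203 (8-cell) and 0.275 (morula). From 13 to 23 Mb they had −0.0508 and 0.00491. The spread between cells was wider for the first block than for later ones, with an SD of 9.35 points at 3 Mb, 8.17 at 13 Mb and 4.60 at 23 Mb in 2-cell embryos.

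Late in S phase, the blocks of 8-cell embryos, 16-cell embryos and morulae were ahead of the rest. In 8-cell embryos with a score of 70 to 90, 90.5% was replicated in the blocks and 77.9% in the rest, and all 11 cells were above 0 (7.34 to 17.1 points, median 12.9). Below a score of 70 the 8-cell difference lay between −1.36 and −0.904 points. In morula cells the difference was −3.55 points at a score of 10 to 30 (1 of 7 cells above 0), −3.59 at 30 to 50 (0 of 9), 1.02 at 50 to 70 (10 of 15) and 7.35 at 70 to 90 (16 of 16), and 16-cell embryos at 70 to 90 had 9.35 points (11 of 11 cells). None of these late 8-cell and 16-cell cells was from 72 h or 77 h. At the 2-cell stage no part of S phase put the blocks ahead, with −2.87, −6.12, −10.6 and −5.38 points for the same 4 ranges. DRB-treated cells had −6.78, −13.2, −11.9 and −11.3 points, and none of the 15 cells at 70 to 90 was above 0.

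**Figure D3:**
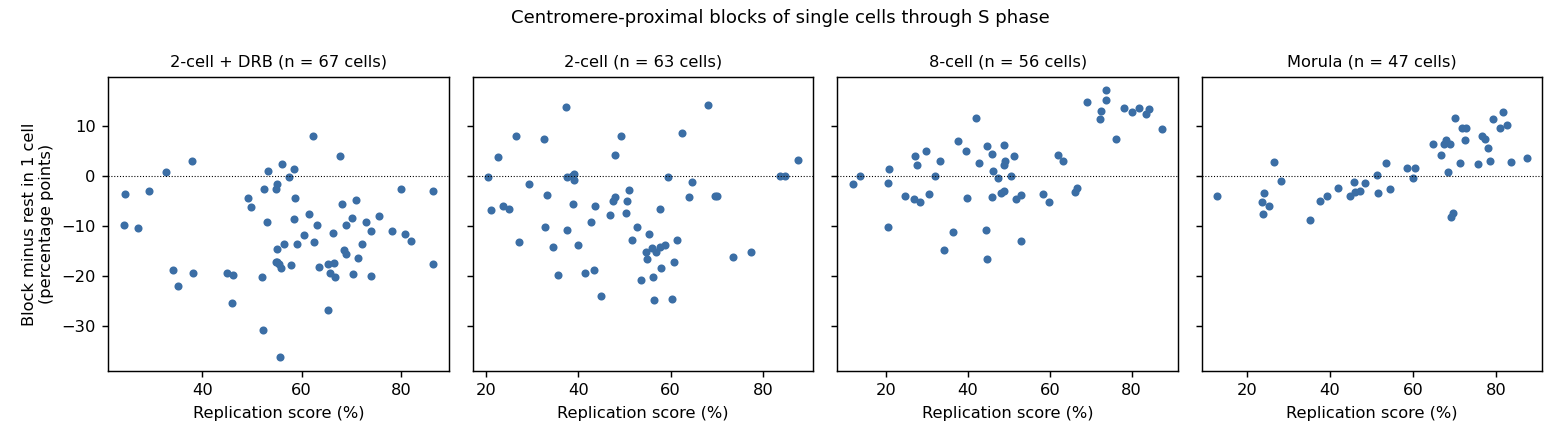
Block minus rest in single cells (percentage points, vertical axis) against the replication score (percent, horizontal axis), 1 panel per group and 1 point per cell. Every 8-cell and morula cell with a score of 70 to 90 lies above 0, while all 15 DRB-treated cells of that range lie below 0.

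The rDNA-bearing chromosomes were on average ahead of the others at every natural stage. From zygotes to the ICM, in the order of the 7 stages, their 5 blocks were at 2.25, −2.79, 8.00, 6.64, 12.4, 13.9 and 6.3 points, and the 14 other blocks were at −4.34, −9.14, −6.75, −0.109, −0.481, −2.77 and 0.425 points. The difference between the sets was thus 6.58, 6.35, 14.8, 6.75, 12.9, 16.7 and 5.88 points. All 5 rDNA blocks were ahead of their chromosome at the 4-cell, 16-cell and morula stages, where 1, 7 and 6 of the 14 others were. In morulae the difference was above 0 in 43 of 47 cells, with a lowest value of −8.94, a median of 18.5 and a highest value of 36.4 points.

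The cells that stand apart moved the difference between the sets at 2 stages. The 9 cells taken at 77 h from 16-cell embryos were at −1.13 points and the 31 taken at 80 h at 17.1 points, and the 8-cell stage was at −7.51 points at 72 h and at 10.2 points without that hour. The 2-cell stage was above 0 at all 7 hours (1.14 to 11 points) and the zygote at 6 of 7 hours (−7.40 to 14.5 points). Base composition moved with it too: the GC content of the block minus that of the rest averaged 1.49 percentage points on rDNA chromosomes and −1.13 on the others. After a linear adjustment of each bin for its GC content, the difference between the sets was 2.77, 4.10, 8.00, 0.291, 3.52, 4.87 and 1.93 points at the same 7 stages, and whether rDNA itself played a part was not tested.

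**Figure D4:**
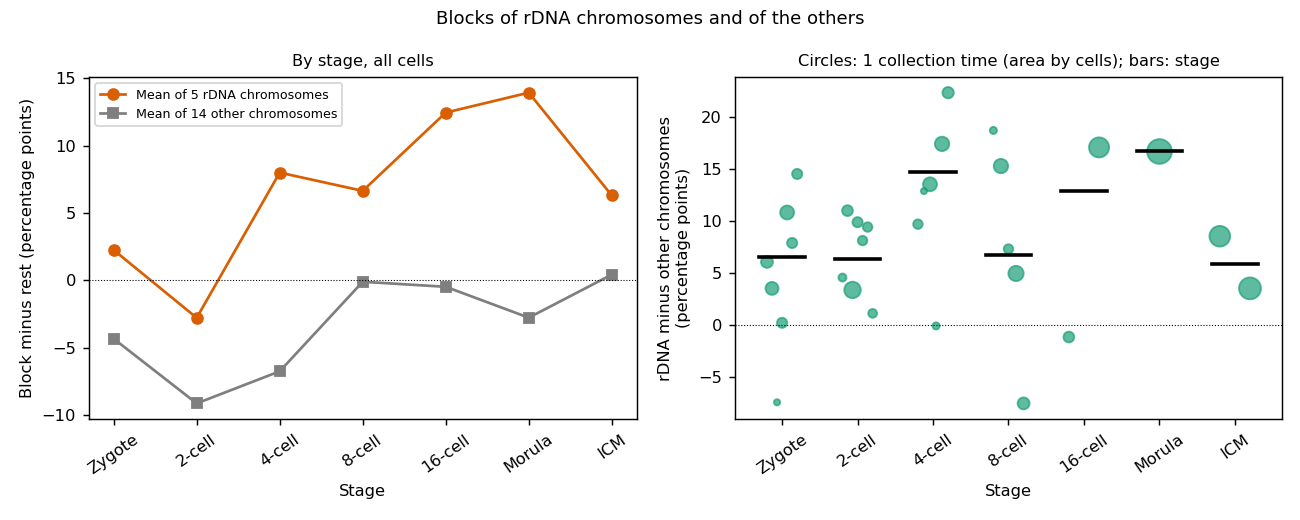
Left, mean block minus rest (percentage points) of the 5 rDNA chromosomes and of the 14 others by stage. Right, the difference between both sets at each collection time (circles, area by number of cells) and in the whole stage (bars), where the bars lie between 5.88 (ICM) and 16.7 points (morula) and circles of the zygote, 4-cell, 8-cell and 16-cell stages reach below 0.

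In zygotes made by IVF the rDNA chromosomes were not ahead. In single IVF zygotes the rDNA-minus-other difference had a lowest value of −31.2, a median of −0.310 and a highest value of 53 points, against −19.0, 5.77 and 26.9 points in natural zygotes, and it was above 0 in 26 of 57 IVF zygotes and in 49 of 66 natural zygotes. The mean was −0.490 ± 12.8 points in IVF zygotes (permutation adjusted p = 0.896) and 6.58 ± 12.1 points in natural zygotes (two-sided sign-flip permutation test, p = 6e-05, adjusted p = 0.00096). The difference of −7.07 points between them passed the test (two-sided permutation of labels, p = 0.00206, adjusted p = 0.011), and with a block of 5 Mb it was −4.87 points and did not (permutation adjusted p = 0.0945). After GC adjustment the pooled values were 0.656 points in IVF zygotes and 2.77 points in natural zygotes, and without chromosome 19 they were 3.32 and 8.39 points. By hour, IVF zygotes ranged from −12.7 to 5.01 points, above 0 at 3 of 6 hours. The 2 kinds of zygote were collected on different clocks, so the mode of fertilization and the time of collection cannot be told apart. The chromosome 19 block differed most, at −16.6 points in IVF zygotes and −4.99 points in natural zygotes.

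Parthenotes and IVF zygotes were not distinguished by either measure. The block-minus-rest difference of parthenotes minus that of IVF zygotes was −0.0176 points (two-sided permutation of labels, adjusted p = 0.992) and the rDNA-minus-other difference was 1.5 points (permutation adjusted p = 0.760). Parthenotes had a mean rDNA-minus-other difference of 1.01 ± 13.5 points and a median of 0 (27 of 57 embryos above 0). Several parthenotes were at exactly 0 on both measures, so those not above 0 were not all below it. Maternal pronuclei were at −1.39 ± 5.87 points for the blocks (9 of 21 above 0) and paternal pronuclei at −0.168 ± 6.26 points (7 of 17 above 0), a difference of −1.22 points (permutation adjusted p = 0.760). Their rDNA-minus-other values were −1.14 ± 13.6 and 2.42 ± 13 points, a difference of −3.56 points (permutation adjusted p = 0.760). Chromosome 18 had its block at −6.33 points in maternal and 8.83 points in paternal pronuclei, and that of chromosome 15 at 12.7 and −0.787 points. Parent and strain cannot be told apart in the pronuclei.

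Single chromosomes differed in the same direction through much of development. On chromosome 15 the block averaged 11.6 points ahead of the rest over the 7 stages (3.45 to 19.6) and was ahead in 13 of 14 groups, and that of chromosome 16 averaged 10.9 points (−2.06 to 19.9, ahead in 11 groups). Chromosome 17, which carries no rDNA in the set used here, followed with 7.28 points (1.84 to 11.7). At the other end, the block of chromosome 9 averaged −18.4 points (−25.5 to −13.5), that of chromosome 3 −12.6 points (−21.2 to −7.46) and that of chromosome 5 −8.86 points (−15.5 to −1.23). The blocks of chromosomes 3, 7 and 9 were behind in all 14 groups. Of the other rDNA chromosomes, 18 averaged 6.56 points, 19 averaged 3.03 and 12 averaged 1.33. Chromosome 19 had 16.6 points at the 4-cell stage and −4.99 in zygotes.

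**Figure D5:**
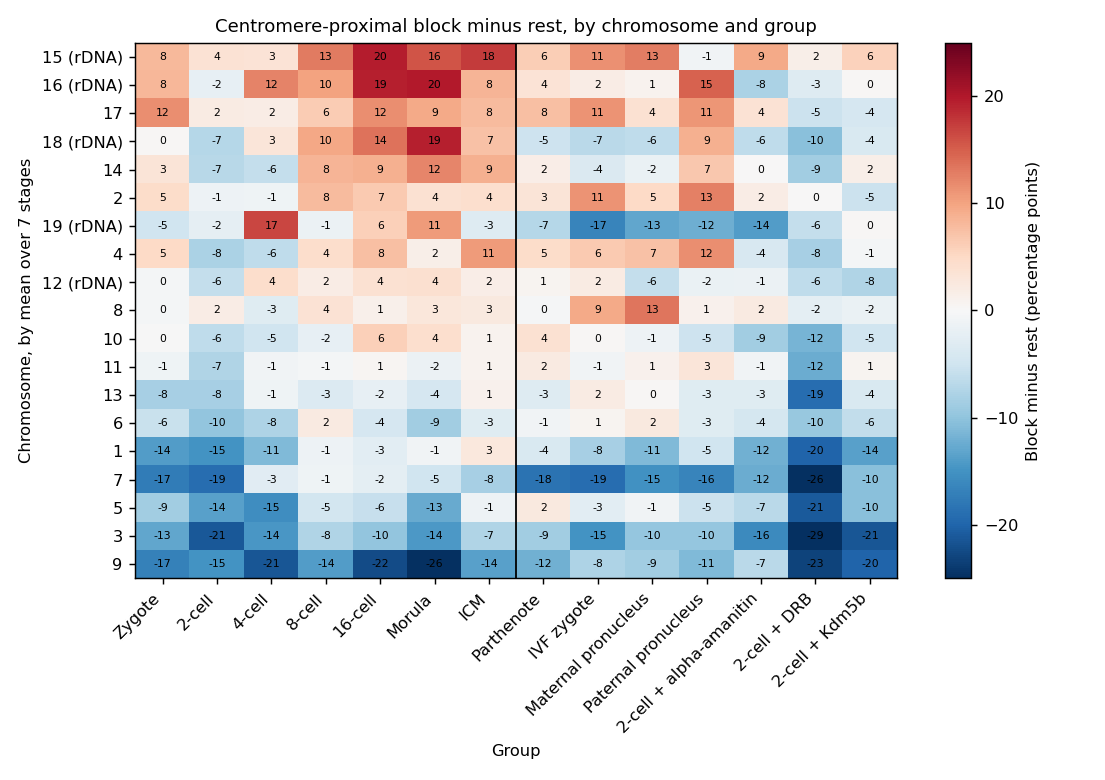
Block minus rest (percentage points, colour and printed value, colours limited at the ends of the scale) of the 19 chromosomes in the 14 groups, ordered by the mean over 7 stages. Chromosomes 16 and 18 had the highest morula values (19.9 and 19.4 points), and chromosomes 3, 7 and 9 were below 0 in every group.

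In single cells, the replicated share of the blocks mostly followed the ranks for chromosomes far apart in rank. This share was not taken relative to the rest of the chromosome. On chromosome 16 the block was more replicated than that of chromosome 9 in 43 of 47 morula cells (91.5%, 95% exact binomial interval 79.6 to 97.6%), with median shares of 79% and 42.5%, and in 36 of 63 2-cell cells (57.1%, 44.1 to 69.5%), with 46.6% and 39.5%. The chromosome 15 block was ahead of that of chromosome 3 in 43 of 47 morula cells, 58 of 67 DRB-treated cells and 48 of 61 2-cell cells. With α-amanitin, chromosome 16 was ahead of chromosome 9 in 21 of 42 cells. Chromosome 19 has a lower block-minus-rest mean than chromosome 16 but a higher block share at these stages. The shares were 77.65% and 72.47% in morulae, 63.11% and 54.06% at the 4-cell stage and 54.03% and 49.41% at the 2-cell stage. By that share chromosome 16 was ahead of chromosome 19 in 18 of 47 morula cells, 18 of 55 4-cell cells and 27 of 63 2-cell cells. These chromosomes were chosen by their ranks in the same cells, and the intervals cover the sampling of cells only, so the counts are descriptions.

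Sequence composition went with the ranks at all 7 stages. Across the 19 chromosomes, the block-minus-rest difference correlated with the GC difference at r = 0.57 at the 2-cell stage (Spearman rho 0.70), 0.89 at the 4-cell stage (rho 0.77) and 0.80 in morulae (rho 0.84), with 0.38 in the ICM (rho 0.38) as the lowest of the 7 stages. It was 0.03 in IVF zygotes (rho 0.12) and −0.01 with α-amanitin (rho 0.15) and in maternal pronuclei. With the difference in repeat-masked sequence r lay between −0.59 and −0.91 over the 14 groups. The blocks of chromosomes 9 and 3, the latest, were 48% and 48.8% repeat-masked, against 30.5% and 34.6% in the rest of these chromosomes. The block of chromosome 19 had 32.4 genes per Mb and a GC content 3.89 points above its rest, and that of chromosome 9 had 3.4 genes per Mb and a GC difference of −4.12 points. Gene density followed the ranks less closely. With the difference in genes per Mb r lay between −0.08 (ICM) and 0.62 (4-cell) over the 7 stages, and was −0.49 in IVF zygotes. The block of chromosome 7, behind in all 14 groups, had 18.1 genes per Mb. Chromosomes share neighbouring sequence features, and these coefficients are given without a test.

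The variability score was higher in the blocks than in the rest at 5 of the 7 stages. The variability score of a bin is 1 where cells are split evenly and 0 where all agree. The score follows the share of cells replicated over S phase, so it does not separate replication near mid S phase from differences in timing between cells. It averaged 0.777 in the blocks and 0.698 in the rest at the 8-cell stage (blocks higher on 17 of 19 chromosomes), 0.686 and 0.607 at the 16-cell stage (19 of 19), 0.620 and 0.538 in morulae (17 of 19) and 0.791 and 0.726 in the ICM (17 of 19). Zygotes had 0.779 and 0.746 (14 of 19), and the blocks were also higher on 14 of 19 chromosomes in IVF zygotes, parthenotes and maternal pronuclei. Without the cells that stand apart it was 0.719 and 0.631 in 8-cell embryos and 0.557 and 0.463 in 16-cell embryos. At the 2-cell stage it was 0.760 in the blocks and 0.773 in the rest (10 of 19), and at the 4-cell stage 0.694 and 0.713 (7 of 19).

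Replication timing (RT) was also expressed from 0 (late) to 1 (early), as the share of cells with a bin replicated averaged over 16 ranges of the replication score. Of 190 windows of 1 Mb in the blocks, 178 had at least 10 called bins, 40 were early (0.5 or more) at all 7 stages (22.5%, against 28.6% of such windows over all chromosomes) and 37 late at all 7 (20.8%, against 20.9%). The earliest window on average lay on chromosome 18 from 10 to 11 Mb (10000001 to 11000000, RT 0.77, with Esco1, a cohesin acetyltransferase, and the kinase Rock1), followed by chromosome 13 from 12 Mb (0.77, with Heatr1 and the methionine synthase Mtr) and chromosome 16 from 4 Mb (0.74, with Crebbp and the nuclease scaffold Slx4). The latest were chromosome 5 from 10 Mb (no gene), chromosome 3 from 6 Mb (1700008P02Rik) and chromosome 1 from 8 Mb (Sntg1, a syntrophin), each with a mean RT of 0.22. The early windows held 7, 9 and 21 genes and the late ones 0, 1 and 1.

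Between the 2-cell stage and the morula, the blocks became earlier relative to their chromosomes on 18 of 19 chromosomes, by 9.09 points in the mean. Chromosome 18 differed most, with 26.6 points, and chromosome 9 was the exception at −10.6 points. By bins, 890 of 3475 block bins were earlier in morulae by at least 0.2 in RT (25.6%, against 23.8% of all bins) and 238 were later (6.85%, against 21.1% of all bins). The share of earlier bins was therefore near the background and that of later bins below it, and on rDNA chromosomes 293 block bins were earlier (30.9%, against 19.9% of all bins of these chromosomes) and 19 later (2.00%, against 23.8%). On the other chromosomes 23.6% of block bins were earlier and 8.67% later, against 24.7% and 20.4% of all their bins. The window that gained most was chromosome 7 from 4 Mb (4000001 to 5000000), with an RT of 0.62 in morulae and 0.24 in 2-cell embryos and 39 genes that include Kmt5c and Ube2s, a ubiquitin-conjugating enzyme of mitotic exit. Windows on chromosome 3 from 9 Mb (Tpd52 and Pag1, 0.82 in morulae and 0.47 in 2-cell embryos) and chromosome 4 from 8 Mb (Chd7, a chromatin remodeller, 0.65 and 0.33) followed. The window with Cntn5 on chromosome 9 had an RT of 0.14 in morulae and 0.59 in 2-cell embryos, and the gene-free windows of chromosome 2 from 8 Mb (0.16 and 0.46) and chromosome 9 from 11 Mb (0.15 and 0.44) also were later in morulae.

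Of the genes on 8 lists that lie in the blocks, 109 were measured in both groups, of which 40 were earlier in morulae by at least 0.2 in RT and 1 was later. By the same rule 25.6% of block bins and 23.8% of all bins were earlier, and 6.85% and 21.1% were later. The RT difference (morula minus 2-cell) was above 0 for 94 of the 109 genes, against 69.3% of block bins and 57.3% of all bins. The lists were chosen by hand and cover a small share of the 1421 protein-coding genes of the blocks. Among 20 genes of DNA replication and repair, 19 were above 0 and 6 were earlier by 0.2 or more. Nipbl, the cohesin loader, had an RT of 0.87 in morulae and 0.73 in 2-cell embryos, and Esco1 0.84 and 0.75. Dbf4, an activator of replication origins, had 0.56 and 0.25, and Lig4, the ligase of end joining, 0.49 and 0.62. All 9 measured genes of chromatin and DNA methylation were above 0 and 4 passed 0.2, among them the DNA methyltransferase Dnmt3a (0.85 in morulae and 0.61 in 2-cell embryos) and the histone methyltransferase Suv39h2 (0.82 and 0.56), while Crebbp had 0.83 and 0.71 and Zmynd11, a reader of histone methylation, 0.69 and 0.64. All 14 measured housekeeping genes were above 0 and 8 passed 0.2, such as Heatr1 (0.91 and 0.67), the GTPase Drg1 (0.89 and 0.68) and the splicing factor U2af2 (0.63 and 0.22).

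Developmental and signalling genes were mixed. For the counts below, 25.6% of block bins were earlier by 0.2 or more. Of 16 developmental regulators 5 were earlier by 0.2 or more and 14 above 0, with Mycn at 0.85 in morulae and 0.58 in 2-cell embryos and Gata6, a factor of primitive endoderm, at 0.83 and 0.55, whereas Tox, a factor of T cell development, had 0.28 and 0.39. Of 16 cytokine and growth genes 4 were earlier by 0.2 or more and 14 above 0. They include Osm (0.82 and 0.52) and Lif (0.78 and 0.52), neighbouring cytokines of chromosome 11, while Lifr, the receptor of Lif, had 0.53 and 0.58 and the growth hormone receptor Ghr 0.42 in both groups. Of 11 imprinted genes 7 were earlier by 0.2 or more and 10 above 0, with Igf2r at 0.79 and 0.48, Grb10 at 0.80 and 0.55 and Usp29 at 0.51 and 0.20. The 7 form groups of neighbours: Peg3, Zim1 and Usp29 on chromosome 7, Grb10 and Ddc on chromosome 11, Igf2r and Airn on chromosome 17. States were smoothed over neighbouring bins, so these genes are not separate observations. Their count therefore cannot show whether imprinted genes were earlier more often than block bins.

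Long neuronal genes were split. Of 18 measured members, 9 were above 0, 1 was earlier by 0.2 or more (Ptprg, 0.80 in morulae and 0.53 in 2-cell embryos) and 1 was later (Cntn5, 0.17 and 0.57). The glutamate receptor gene Gria4 had 0.25 and 0.45, Xkr4 0.19 and 0.33, and the calcium channel gene Ryr2 0.76 and 0.56. The list for oocytes and 2-cell embryos also holds Prm1 and Prm2, protamine genes of sperm. Only 5 of its 13 genes were measured in both groups: Mos, Nlrp2, Aurkc, Prm1 and Prm2. All 5 were earlier by 0.2 or more, such as Aurkc, a meiotic Aurora kinase, with 0.41 in morulae and 0.14 in 2-cell embryos. Genes that share a bin, such as Dlx5 and Dlx6 or Socs1, Prm1 and Prm2, share their value. Genes in nearby bins are not independent either, since states were smoothed and segmented along the chromosome. The lists are therefore described by counts only.

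With DRB the blocks were further behind. The block-minus-rest difference was −11.6 points with DRB, where 17 of 19 blocks were behind, against −7.47 points in untreated 2-cell embryos, and it was lower with DRB on 17 of 19 chromosomes. In single cells the lowest, median and highest values were −36.4, −11.7 and 8.06 points with DRB and −24.8, −6.72 and 14.2 points without. All 7 DRB hours were below 0 (−20.8 to −6.37 points), and the hours of both groups overlap (−14.1 to −4.04 untreated). Over the 5 hours that the groups share, the DRB-minus-control difference was −3.31 points, and without 38 h it was −5.33 points. By bins, 71 block bins were later with DRB (2.04%, against 1.36% of all bins) and 51 were earlier (1.47%, against 4.44% of all bins). At a difference of 0.3 none was later and 5 were earlier. Chromosome 13 differed most (DRB minus control, −10.7 points), and the rDNA chromosomes were 9.18 points ahead of the others with DRB and 6.35 points in controls.

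With α-amanitin, an inhibitor of RNA polymerase II, the pooled blocks were closer to their chromosomes, a contrast that rests on the 38 h cells. The difference was −4.59 points with α-amanitin and −7.47 points in controls, higher with α-amanitin on 16 of 19 chromosomes, and 5.34 points higher over the 4 shared hours. The hours of α-amanitin ranged from −10.1 to 1.17 points and overlap those of controls. At 38 h the value was 1.17 points with α-amanitin and −14.1 points in controls, and without that hour it was −6.64 points with α-amanitin and −6.66 points in controls. The lead of the rDNA chromosomes was 0.742 points with α-amanitin and 6.35 points in controls, and over the shared hours the difference between the groups (α-amanitin minus control) was −4.92 points, and without 38 h it was −2.69 points. The chromosome 19 block moved most, at −13.9 points with α-amanitin and −2.27 points in controls. Of block bins, 137 were earlier (3.94%, against 3.85% of all bins) and 64 were later (1.84%, against 3.39% of all bins). On rDNA chromosomes 58 block bins were later (6.10%, against 4.89% of all bins of these chromosomes). On the others 6 were later (0.238%, against 3.03% of all their bins).

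The 3 highest and 3 lowest windows in the contrast of α-amanitin with controls lay on chromosomes 5, 6, 17 and 19. On chromosome 19, the window from 6 Mb had an RT of 0.21 with α-amanitin and 0.46 in controls and that from 5 Mb 0.31 and 0.55, and these gene-dense windows hold 47 and 53 genes. Pola2, a subunit of the primase complex in the second of them, had 0.28 with α-amanitin and 0.57 in controls, and the acetyltransferase gene Kat5 0.33 and 0.54. The window of Cdk6 at the start of the called sequence of chromosome 5 had 0.22 and 0.45, and Cdk6 itself 0.18 and 0.57. In the opposite direction, chromosome 17 from 3 Mb (Tiam2 and Scaf8) had 0.60 with α-amanitin and 0.33 in controls, chromosome 6 from 7 Mb (Asns, asparagine synthetase, and Tac1, a neuropeptide precursor) 0.45 and 0.22, and chromosome 6 from 12 Mb (Thsd7a) 0.55 and 0.34. Without the 38 h cells of both groups these windows kept their directions, with 0.24 and 0.48 for chromosome 19 from 6 Mb and 0.59 and 0.33 for chromosome 17 from 3 Mb, and Cdk6 was at 0.19 with α-amanitin and 0.57 in controls. The windows were picked as extremes with the remaining cells included, so the kept directions are a description and no independent check.

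With Kdm5b mRNA the pooled lag was smaller, a contrast that was less than 1 point without the 38 h cells. The block-minus-rest difference was −5.54 points with Kdm5b and −7.47 points in controls, higher with Kdm5b on 13 of 19 chromosomes. Over the 4 shared hours it was higher by 3 points, and the single hours (−7.22 to −4.54 points) lie within the control range. Without 38 h in both groups the values were −5.95 points with Kdm5b and −6.66 points in controls. The rDNA difference was 6.20 points with Kdm5b and 6.35 points in controls, and without 38 h it was 7.31 and 6.16 points, so its direction turned. Block bins were earlier in 126 cases (3.63%, against 1.43% of all bins) and later in 16 (0.461%, against 0.985% of all bins). Among pronuclei, 369 block bins were earlier in maternal than in paternal pronuclei (10.6%, against 12.1% of all bins) and 355 later (10.2%, against 9.76% of all bins). Between parthenotes and IVF zygotes, 73 were earlier in parthenotes (2.10%, against 1.65% of all bins) and 180 later (5.17%, against 4.36% of all bins). The treated groups share the untreated 2-cell cells as control. States of the control, α-amanitin and DRB cells were deposited as separate sets of different dates. Treatment and set therefore cannot be told apart in these contrasts.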

How the data were processed

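The authors deposited, for each cell and 50 kb bin of GRCm38, a binary replication state, which is neither a count nor a ratio: 1 (replicated), 0 (not replicated) or missing. Per their methods, reads were aligned with Bowtie2 2.3.5, filtered with SAMtools 1.9 (mapping quality of 20 or more) and counted with bedtools 2.29.0. Counts were divided by the bin mean over cells of a stage, masked (lowest 5%, highest 1% of bins), smoothed over 15 bins, segmented and split into 2 states, with no G1 or G2 cells as reference, so a copy number shared by a whole stage leaves no trace. Read depth is not in the deposited states, and the number of cells limits the precision.

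Bins were averaged per chromosome, and chromosomes had equal weight. Some cells of several groups, zygotes among them, were at exactly 0 on both measures. They were kept, so cells not above 0 include such ties. Tests were two-sided permutation tests over embryos (100000 resamples), adjusted by Benjamini-Hochberg over 16 tests. They measure the spread between embryos, whose mothers are not known. Bins differing by 0.2 in RT were counted as earlier or later. GC content, soft-masked repeats and genes came from the GRCm38.p6 assembly of NCBI. Named chromosomes and windows were the 3 highest and 3 lowest in each ranking, and named genes the extremes and well known members of 8 lists. Sntg1 and Chd7 have no promoter in the table used. The blocks, lists and comparisons were chosen with earlier results of these data known. Alternatives were other score ranges, quality-passed cells, 5 Mb blocks, GC adjustment, other weights and leave-one-out over hours and chromosomes. Leaving out 72 h (8-cell) and 77 h (16-cell) for late S phase, pair correlations and variability, 38 h for treated against control 2-cell embryos, and chromosome 19 or GC content for IVF against natural zygotes, was chosen after seeing the data. Steps were tested on simulated data. Software was Python 3.11.15 with SciPy 1.17.1, NumPy 2.4.6, Matplotlib 3.10.9 and pandas 2.3.3.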

Additional observations from a re-analysis of the deposited data

Results flagged for a closer look

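The lead of the rDNA-bearing chromosomes differed between IVF and natural zygotes by a test of the difference itself, at −7.07 points (IVF zygotes minus natural zygotes, permutation adjusted p = 0.011 over 16 tests). It was above 0 in 26 of 57 IVF zygotes and in 49 of 66 natural zygotes. With 5 Mb blocks it was −4.87 points and did not pass (permutation adjusted p = 0.0945), after GC adjustment the pooled difference was −2.12 points, and without chromosome 19 it was −5.07 points (3.32 in IVF zygotes and 8.39 in natural zygotes). The time of collection, counted on different clocks, cannot be told apart from the mode of fertilization.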

How the results depend on the processing

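In the tests, 33 of 46 alternatives kept the direction and the side of the threshold. At scores of 20 to 80, the paternal block difference was 0.179 and parthenotes minus IVF zygotes 0.246. With 5 Mb blocks the block difference was −3.34 in IVF zygotes and −3.27 in parthenotes (both past the threshold), IVF minus natural zygotes −0.0378 and parthenotes minus IVF 0.0718. With the same blocks the rDNA-minus-other difference was 0.666 (IVF), −0.272 (parthenotes), 1.27 (maternal), −4.87 (IVF minus natural, no longer past the threshold), −0.938 (parthenotes minus IVF) and 0.181 (maternal minus paternal). With the replicate block over 10 pronuclear pairs of shared number, the maternal-minus-paternal difference was −1.20 for the blocks (permutation p = 0.584, 5 of 10 pairs above 0) and 0.731 for rDNA chromosomes (permutation p = 0.922, 6 of 10). Same-numbered pronuclei did not deviate together (r −0.0344 to 0.0837, 1 of 10 best matched by its own number). Whether both pronuclei of a zygote would deviate together is not known, so pairing by number stays undecided.

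In the pooled group values, GC adjustment gave a morula rDNA difference of 4.87, an IVF one of 0.656 and a paternal block difference of 0.213. With 5 Mb blocks the rDNA difference was 0.679 (IVF), −0.155 (parthenotes), 0.953 (maternal) and −1.48 (α-amanitin). The maternal one was 0.747 as RT, the paternal one −0.505 without chromosome 16 and the α-amanitin one −0.328 with the last 10 Mb left out of the rest. The paternal block difference was 0.149 at scores of 20 to 80 and 0.548 with bins weighted equally. Leaving out an hour or a chromosome gave paternal block differences of −1.02 to 0.706, and rDNA differences of −1.13 to 17.1 (16-cell), −2.62 to 3.47 (α-amanitin), −3.68 to 3.32 (IVF), −5.03 to 1.42 (maternal), −0.514 to 2.83 (parthenotes) and −0.505 to 6.18 (paternal). The causes were not tested.

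At a difference of 0.3 in RT, earlier and later block bins were 233 and 75 (6.71% and 2.16%, against 7.54% and 11.2% of all bins) for morula against 2-cell, 18 and 10 (0.518% and 0.288%, against 0.411% and 0.487%) for α-amanitin, 5 and 0 (0.144% and 0%, against 0.295% and 0.0215%) for DRB, where the order turned, 22 and 1 (0.634% and 0.0288%, against 0.121% and 0.0151%) for Kdm5b, 101 and 87 (2.91% and 2.50%, against 3.76% and 2.73%) for maternal against paternal and 13 and 16 (0.373% and 0.460%, against 0.110% and 0.461%) for parthenotes against IVF. Over shared hours they were 411 and 89 (11.8% and 2.56%, against 7.91% and 5.53%) for α-amanitin, 91 and 114 (2.62% and 3.28%, against 6.09% and 2.68%) for DRB, 291 and 128 (8.38% and 3.69%, against 6.05% and 6.94%) for Kdm5b and 252 and 349 (7.24% and 10.0%, against 6.69% and 9.36%) for parthenotes against IVF. The shared hours hold 26 to 57 cells a group, which limits how finely a share of cells can be read.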
